A study of Mus musculus with 21 samples.

Results

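Liver RNA of *Cse* knockout mice fed without cysteine (KO no-Cys, 3 libraries, numbered 1, 3 and 4) was compared across all genes with that of knockouts fed without tryptophan (KO no-Trp, 5 libraries, numbered 1 to 5). These 8 libraries, of 21 in the series, were chosen by their titles. *Cse*, whose gene symbol is *Cth*, encodes cystathionine γ-lyase, the last enzyme of cysteine synthesis from methionine, so knockouts without dietary cysteine had neither source, whereas mice of any genotype must take tryptophan from food. The question was which changes belong to cysteine and which follow the loss of an amino acid in general. All animals were males of a 129 and C57BL/6 background, at least 9 weeks old and calorie restricted; after 3 days of restricted control food they received restricted food of control, no-Cys or no-Trp composition for 2 days, and the depleted diets held proportionally more of the remaining amino acids. The 4 knockouts on the control diet (KO CTR) served to place each diet. Mice labelled WT, which the study's text describes as *Cse*+/−, gave the same diet contrast in 4 no-Cys and 2 no-Trp libraries. The animals were thus short of energy as well as of 1 amino acid, and the CTR group shares that restriction.

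The transcription factor ATF4 raises genes of amino acid synthesis, uptake and tRNA charging, and its protein accumulates when cells lack an amino acid; the kinase GCN2 is the sensor of that shortage, and the programme is known as the integrated stress response (ISR). Cysteine is also needed for glutathione, taurine and coenzyme A. KEAP1, a sensor with reactive cysteines of its own, binds and holds back NRF2, the main factor of the oxidative stress response (OSR). Tryptophan is the source of serotonin and, in liver, of kynurenine and NAD. In hepatocytes these responses meet the sterol and fatty acid programme of the SREBP factors.

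Total counts ran from 8889951 to 18417408 in KO no-Cys and from 9752555 to 18909922 in KO no-Trp. Levels are given as CPM, the counts scaled to a common library size with TMM (a trimmed mean of log ratios), and each fold change is a log2 value with its SE. A gene was called when the adjusted p of edgeR's quasi-likelihood test, Benjamini-Hochberg over 14370 genes, was under 0.05. Correlations of log2 CPM were 0.978 to 0.987 within KO no-Cys, 0.973 to 0.985 within KO no-Trp and 0.958 to 0.976 between them. KO no-Cys replicate 1 stood apart from its group: it was the shallowest of the group, its *Alb* level was 44754 CPM against 21622 and 24482 in replicates 3 and 4, and it lay nearest to KO no-Trp for many stress genes. Nothing in the labels says whether libraries of a group were prepared together, and p-values measure the spread between animals as labelled.

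*Cth* was at 8.12, 6.34 and 7.33 CPM in the KO no-Cys libraries and at 9.61, 12, 13.7, 11.9 and 12.2 in KO no-Trp. All of these lay far under the 108 to 452 CPM of the WT-labelled libraries on the depleted diets, so every library of the comparison went with its genotype label. Between the knockout groups the levels did not overlap, but the log2 fold change of -0.72 (SE 0.32) was not called (adjusted p = 0.134).

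Knockouts without cysteine differed from knockouts without tryptophan in 2000 of the 14370 genes. Of these 1030 were higher (7.17% of all tested) and 970 lower (6.75%) in no-Cys, and 190 and 221 of them by more than 2-fold. The count rests on the 2 deeper no-Cys libraries. Without KO no-Cys replicate 3 it was 570 (300 higher, 2.1%, and 270 lower, 1.89%), without replicate 4 it was 1197, and without replicate 1 it was 2124. Leaving out any 1 of the no-Trp libraries gave 1419 to 2020. A set of 516 genes was called whichever of the 8 libraries was left out. Scaling by library totals alone gave 1994 calls but moved the share of higher ones from 51.5% to 68.3%, so small changes of single direction depend on the scaling. Levels of the groups did not overlap for 1441 genes that were higher (10.0% of all tested) and 1373 that were lower (9.55%).

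**Figure D1:**
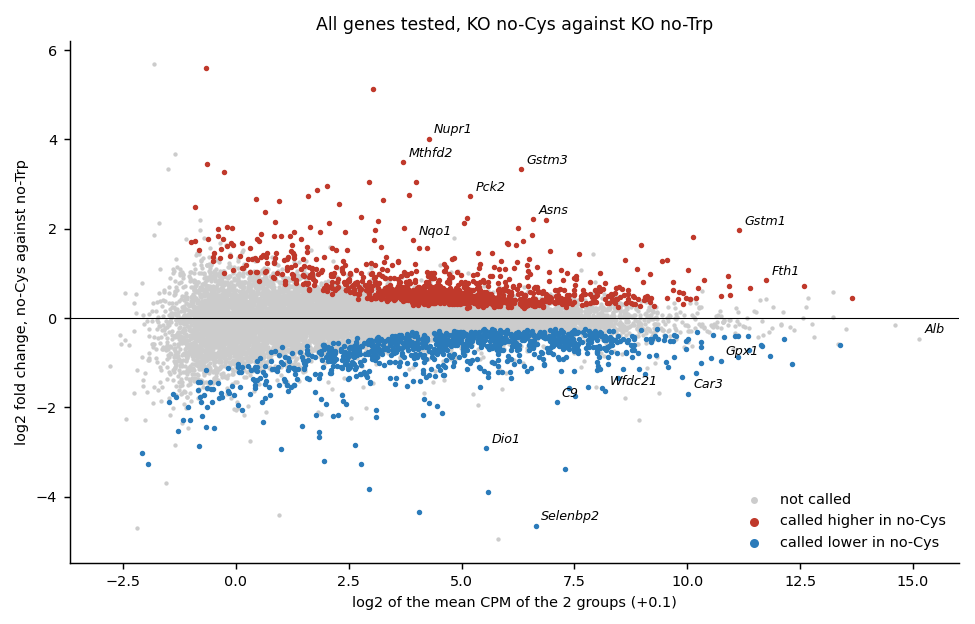
Log2 fold change of KO no-Cys against KO no-Trp (vertical axis) against the log2 mean CPM of both groups (horizontal axis), 1 point per gene, with called genes coloured by direction. The 1030 genes called higher and the 970 called lower lie on both sides at all levels, with *Nupr1*, *Mthfd2* and *Gstm3* among the highest and *Selenbp2* among the lowest.

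**Figure D2:**
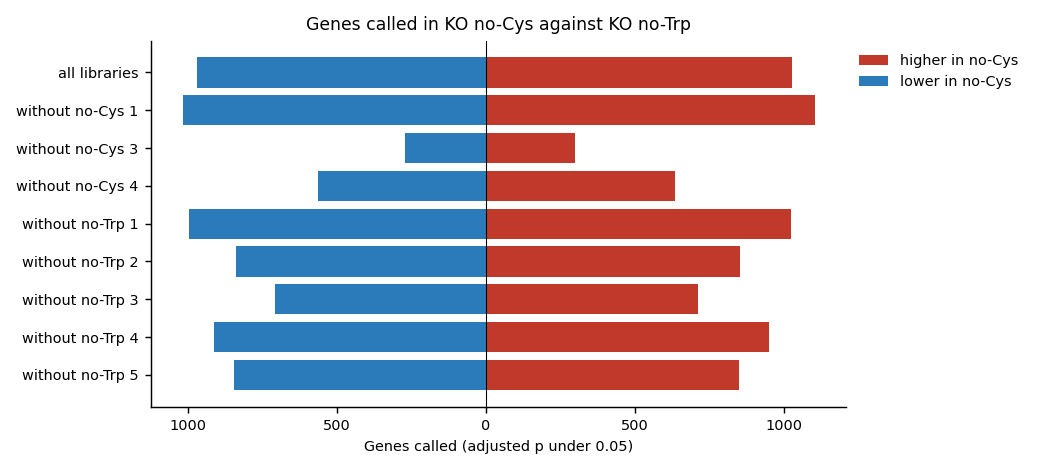
Number of genes called higher (to the right) and lower (to the left) in KO no-Cys against KO no-Trp with all libraries and with each library left out. Without no-Cys replicate 3 the bars shrink to 300 and 270 genes.

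The same knockouts were then set against KO CTR. The no-Cys group differed from it in 1528 higher genes (10.6%) and 1378 lower ones (9.59%), and the no-Trp group in 112 (0.779%) and 157 (1.09%). Both contrasts share the 4 KO CTR libraries, so their values are given side by side and nothing is read from their likeness. Single libraries mattered here too: the first count fell from 2906 in all to 1379 without KO no-Cys replicate 3, and the second ran from 105 without KO CTR replicate 1 to 447 without KO CTR replicate 2, against 269. That count also depends on the test: it was 606 with DESeq2, the study's tool, 610 with limma-voom and 136 with only the 2 groups in the fit.

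Among genes called whichever library was left out, with non-overlapping groups and an average over 2 log2 CPM, the 12 largest rises in no-Cys over no-Trp were mostly of stress and amino acid genes and of glutathione transferases. *Nupr1*, a small stress-induced chromatin protein, was at 5.75, 59.7 and 42.9 CPM in no-Cys and at 1.36, 1.86, 2.35, 2.27 and 3.43 in no-Trp. Even the low replicate 1 lay above every no-Trp library, and the log2 fold change was 4.02 (SE 0.44, adjusted p = 1.28e-05). *Mthfd2*, the mitochondrial folate enzyme that makes one-carbon units, was at 6.77, 36.6 and 27.7 CPM in no-Cys and at 1.48 to 2.69 in no-Trp (3.49, SE 0.39, adjusted p = 1.72e-05). *Arhgef2*, a microtubule-bound activator of RhoA, was at 7.89, 40.3 and 25.6 against 2.17 to 4.35 CPM (2.76). In each of these, replicates 3 and 4 were far higher than replicate 1, and the highest library of the group was 10.4, 5.41 and 5.11 times the lowest.

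*Asns*, asparagine synthetase (chromosome 6, 7675169 to 7693254 on GRCm38), was at 146, 181 and 147 CPM in no-Cys and at 43.3, 35.4, 24.9, 35.2 and 30.4 in no-Trp (2.22, SE 0.31, adjusted p = 0.000119). *Psat1*, an enzyme of serine synthesis (chromosome 19, 15904678 to 15947337), was at 47.5, 65.5 and 49.0 against 10.1, 10.2, 12.2, 14.6 and 14.3 CPM. It differed from KO CTR under both diets, by 4.18 in no-Cys and 2.04 in no-Trp, and the 2 diets were 2.14 apart (SE 0.32, adjusted p = 0.000211). *Pck2*, the mitochondrial form of the enzyme that makes phosphoenolpyruvate (chromosome 14, 55540266 to 55551242), was likewise raised by both, at 3.84 to 4.5 CPM in CTR, 7.0 to 14.5 in no-Trp and 46.5, 89.3 and 52.7 in no-Cys (2.73 between the diets, SE 0.20, adjusted p = 4.03e-08). For *Psat1* and *Pck2* every no-Trp library thus lay above every CTR library and below every no-Cys library.

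Completing the 12 largest rises were *Gstm3*, *Gstm2* and *Gstm1*, described with the oxidative genes, the efflux pump gene *Abcc4* (8.46, 14.2 and 10.5 against 1.87 to 3.31 CPM, 2.27), the glycosyltransferase gene *Extl1* (31.9, 73.2 and 66.3 against 6.21 to 16.3 CPM, 2.25) and the axon-glia adhesion gene *Cntnap1* (6.32, 30.2 and 12.6 against 1.41 to 3.81 CPM, 2.65). *Cntnap1* overlaps *Plekhh3*, and reads of overlapping genes could not be told apart because the strand setting of the counting was not given.

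**Figure D3:**
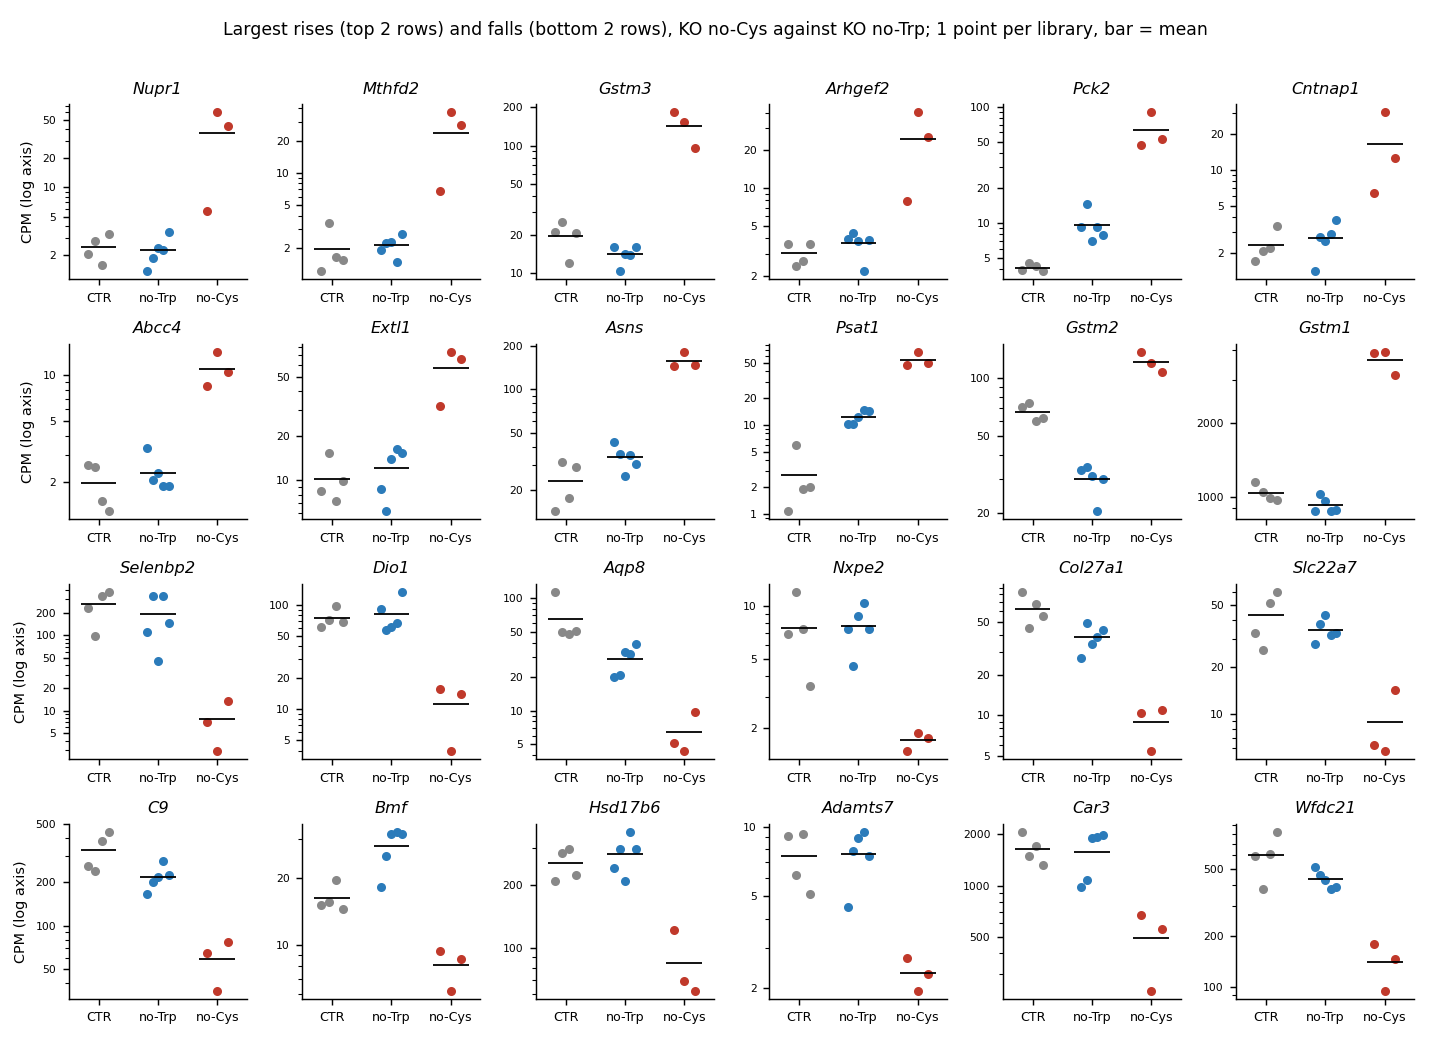
CPM on a log axis of the 12 largest rises and the 12 largest falls in each KO CTR, KO no-Trp and KO no-Cys library (points) with group means (bars). For all 24 genes every no-Cys library lies on one side of every no-Trp library, which the choice of genes required.

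Regulators and secreted signals of the stress response were the first list described. Of 23 tested, 11 were called higher in no-Cys than in no-Trp and 0 lower, with a median log2 fold change of 0.55 against 0.01 over all genes. Without KO no-Cys replicate 3 the count was 4 and the median 0.33. Against KO CTR, 11 were higher and 2 lower in no-Cys, and 0 were called in either direction in no-Trp with edgeR (4 at an unadjusted p under 0.05, and 0 with DESeq2 or limma-voom). The study's text picked several of these genes on libraries of this series, so they are not independent evidence of a direction. *Atf5*, a factor of the ISR and the mitochondrial stress response, was at 1239, 2165 and 1794 CPM in no-Cys and at 374 to 630 in no-Trp (1.82, SE 0.18, adjusted p = 4.64e-06), although it overlaps *Il4i1*. *Eif4ebp1*, which restrains cap-dependent translation, was at 148, 165 and 157 against 76.1 to 103 CPM (0.84, adjusted p = 8e-06). The mRNA of *Atf4* itself, which is controlled mainly by translation, was at 95.6, 181 and 143 against 78.3 to 108 CPM; the groups overlapped and the change of 0.55 (adjusted p = 0.0361) was lost without any 1 of 5 libraries.

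Several known ISR outputs overlapped between the diets, through no-Cys replicate 1 and, for *Gdf15*, through no-Trp replicate 5. *Ddit3*, the pro-apoptotic factor CHOP, was at 8.8, 22.5 and 19.4 CPM in no-Cys and at 5.14 to 10.7 in no-Trp (1.25, adjusted p = 0.00175), and it shares its locus with *Mars*. *Trib3*, a pseudokinase that dampens ATF4, was at 51.9, 225 and 101 against 19.3 to 65.7 CPM (1.72, adjusted p = 0.0042). The glutathione-degrading enzyme gene *Chac1* was at 11.8, 52.9 and 19.1 against 5.37 to 12.5 CPM (1.56, adjusted p = 0.014). For the 2 hormones of the response, *Fgf21* was at 6.88, 43.3 and 34.8 against 1.19 to 5.65 CPM (3.05, SE 0.73, adjusted p = 0.00894), and *Gdf15* at 3.61, 19.5 and 17.1 against 1.65 to 7.98 (1.98, SE 0.50, adjusted p = 0.0124). *Fgf21* did not overlap, but KO CTR replicate 2 was itself at 19.4 CPM and the no-Cys group was not called against CTR. Without KO no-Cys replicate 3, *Trib3*, *Chac1*, *Fgf21* and *Gdf15* were no longer called, at 1.0, 0.7, 2.61 and 1.61 (adjusted p = 0.107, 0.335, 0.0751 and 0.111), and *Gdf15* was also lost without replicate 4. *Atf6*, a membrane-bound sensor of unfolded protein, was not called (0.28, adjusted p = 0.112).

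The letters TGATGNAA, read on either strand, resemble the sites that ATF4 and its partners use in amino acid response elements. They were searched in the 250 bases before each start of the RefSeq promoters on GRCm38.p6. Of 25 windows of the stress regulators 5 held them, against 3.45% of all 32851 windows in that table. That list was written from known members of the response and genes the study names. Its share thus follows in part from the choice of genes and is not a result of these data. Genes called higher or lower had a window for 76.0% and 74.9% of their members, under the 80% that such a comparison needs, so it is void and no share is given for them. The stretches below are those of genes whose values carry the stress, synthesis and tRNA charging results; capitals mark the match, and each reads 5′ to 3′ on the gene's strand.
Asns, chr6:7693214-7693243, minus strand: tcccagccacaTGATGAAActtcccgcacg
Nupr1, chr7:126625562-126625591, minus strand: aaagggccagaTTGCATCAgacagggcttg
Pck2, chr14:55540123-55540210, plus strand: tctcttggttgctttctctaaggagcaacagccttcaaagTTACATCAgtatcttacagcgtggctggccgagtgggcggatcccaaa
Pycr1, chr11:120643804-120643891, minus strand: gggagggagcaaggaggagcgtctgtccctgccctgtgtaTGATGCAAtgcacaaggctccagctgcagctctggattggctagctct
Fgf21, chr7:45615582-45615669, minus strand: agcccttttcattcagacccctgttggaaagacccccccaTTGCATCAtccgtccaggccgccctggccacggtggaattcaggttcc
Chac1, chr2:119351009-119351096, plus strand: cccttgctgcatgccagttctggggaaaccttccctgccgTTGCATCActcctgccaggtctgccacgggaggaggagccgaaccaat
Gars, chr6:55037931-55038000, plus strand: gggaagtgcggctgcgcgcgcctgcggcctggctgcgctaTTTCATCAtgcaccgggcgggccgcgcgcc
Herpud1, chr8:94386277-94386364, plus strand: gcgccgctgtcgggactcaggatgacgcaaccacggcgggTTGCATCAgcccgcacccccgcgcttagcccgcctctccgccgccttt
In *Nupr1*, *Fgf21*, *Chac1* and *Herpud1* the letters are the same 8 bases, TTGCATCA. *Herpud1*, of the unfolded protein response, is shown because it holds them and was not called between the diets. The *Asns* and *Nupr1* stretches are shorter because they overlap annotated exons. A match is a description of the letters and not evidence of binding.

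Of 32 tested enzymes that make amino acids or one-carbon units, 13 were called higher and 2 lower in no-Cys than in no-Trp (median 0.26). The counts were 8 and 1 without KO no-Cys replicate 3, and the median was 0.14 without KO no-Cys replicate 1. Beside *Mthfd2*, *Asns*, *Psat1* and *Pck2* the called rises included *Mthfd1l*, the next mitochondrial folate enzyme (6.88, 10.1 and 7.91 against 1.29 to 3.42 CPM, 1.94, adjusted p = 0.000627), and the proline enzyme gene *Pycr1* (1.8, 4.43 and 3.92 against 0.746 to 1.24 CPM, 1.83, adjusted p = 0.000768). *Glul*, glutamine synthetase, was among the called falls, at -0.46 (not called without KO no-Cys replicate 3 or replicate 4). Against KO CTR, 14 were higher and 4 lower in no-Cys and 3 and 1 in no-Trp. *Phgdh*, the entry to serine synthesis, was not called between the diets (1.44, adjusted p = 0.0725).

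Amino acid transporters showed 6 called higher and 1 lower of 24 tested, the latter lost without any 1 of 6 of the 8 libraries. The higher count was 4 without KO no-Cys replicate 3 and 9 without KO no-Trp replicate 1. *Slc3a2*, the shared heavy chain of several exchangers, was at 54.8, 163 and 118 CPM in no-Cys and at 32.1 to 42.3 in no-Trp (1.64, adjusted p = 3.98e-05). *Slc7a1*, a carrier of cationic amino acids, was at 1.69, 12.4 and 6.75 against 0.672 to 1.09 CPM (2.95, adjusted p = 0.000103). *Slc1a4*, which carries serine, alanine and cysteine, was at 1.8, 10.4 and 7.52 against 0.887 to 2.16 CPM (2.12, adjusted p = 0.00143), and *Slc7a5*, a carrier of large neutral amino acids including tryptophan, at 2.03, 14.4 and 7.58 against 1.76 to 4.17 (1.53, adjusted p = 0.0118). In the last 2, replicate 1 lay inside the no-Trp range. *Slc7a11*, the cystine carrier, was too low to be tested, with 0, 30 and 4 counts in the no-Cys libraries and 1, 1, 0, 0 and 0 in no-Trp. Its reads in no-Cys thus came almost all from replicate 3.

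The cytosolic aminoacyl-tRNA synthetases, which load tRNA with its amino acid, were the list with the largest share called higher. Of 20 tested, 16 were higher in no-Cys than in no-Trp and 0 lower (median 0.62), 10 without KO no-Cys replicate 3 and 16 without replicate 4. Against KO CTR, 19 were higher in no-Cys and 0 in no-Trp with edgeR (3 unadjusted, and 0 with DESeq2 or limma-voom). Library by library, the median of the list stood 0.38, 0.89 and 0.68 log2 units over the KO CTR mean in no-Cys and between -0.1 and 0.11 in no-Trp, so the groups did not overlap. *Gars*, for glycine, was at 110, 150 and 126 CPM against 47.2 to 56.9 (1.32, SE 0.12, adjusted p = 5.32e-07). *Sars*, for serine, was at 146, 244 and 207 against 84.7 to 102 CPM (1.08, adjusted p = 8e-06), and *Vars*, for valine, at 56.4, 82.9 and 71.4 against 36.5 to 44.6 (0.79, adjusted p = 7.1e-05). *Mars*, for methionine, was called too (1.13) but overlaps *Ddit3*.

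Of the synthetases of the 2 missing amino acids, that of cysteine was called and that of tryptophan was not. The 2 genes were not tested against each other. *Cars*, which charges tRNA with cysteine, was at 42.2, 75.9 and 62.9 CPM in no-Cys and at 22.0, 19.1, 18.7, 19.8 and 30.4 in no-Trp (1.46, SE 0.20, adjusted p = 9.43e-05). *Wars*, which charges it with tryptophan, was at 19.3, 23.3 and 27.8 against 17.5 to 26.4 CPM and was not called (0.12, SE 0.14, adjusted p = 0.58). Against KO CTR *Wars* was called higher in no-Cys (0.44) and not in no-Trp (0.32). The mitochondrial synthetases had 5 called higher of 17 tested (median 0.21), 0 without KO no-Cys replicate 3, 1 without replicate 4, 3 without replicate 1, and 2 without any 1 of KO no-Trp replicates 1, 2 and 3.

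Of 30 tested chaperones and folding enzymes of the endoplasmic reticulum (ER), 2 were called higher and 1 lower (median 0.01) between the diets, shares near the 7.17% and 6.75% of all genes, and 2 and 3 without KO no-Trp replicate 1. Against KO CTR, 13 were higher in no-Cys (median 0.45) and 12 in no-Trp (median 0.44), with 0 lower in either. *Hspa5*, the main ER chaperone BiP, was at 461 to 723 CPM in CTR, 1279, 1179 and 1527 in no-Cys and 900, 1170, 933, 1527 and 1028 in no-Trp. It differed from CTR by 1.07 and 0.82, and between the diets by 0.26 (SE 0.20), which was not called (adjusted p = 0.414). *Derl3*, of ER-associated degradation, was at 0.571 to 2.76 CPM in CTR, at 10.7, 9.91 and 29.5 in no-Cys and at 2.44 to 30.9 in no-Trp, with 3.34 and 3.17 against CTR. The exceptions included *Derl1*, of the same degradation channel, at 190, 256 and 206 in no-Cys against 130 to 156 CPM in no-Trp (0.62, adjusted p = 0.00028), and *Ern1*, the sensor IRE1, at 31.8, 67.3 and 52.3 against 23.1 to 33.4 CPM (0.78, adjusted p = 0.00692; not called without KO no-Cys replicate 3).

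**Figure D4:**
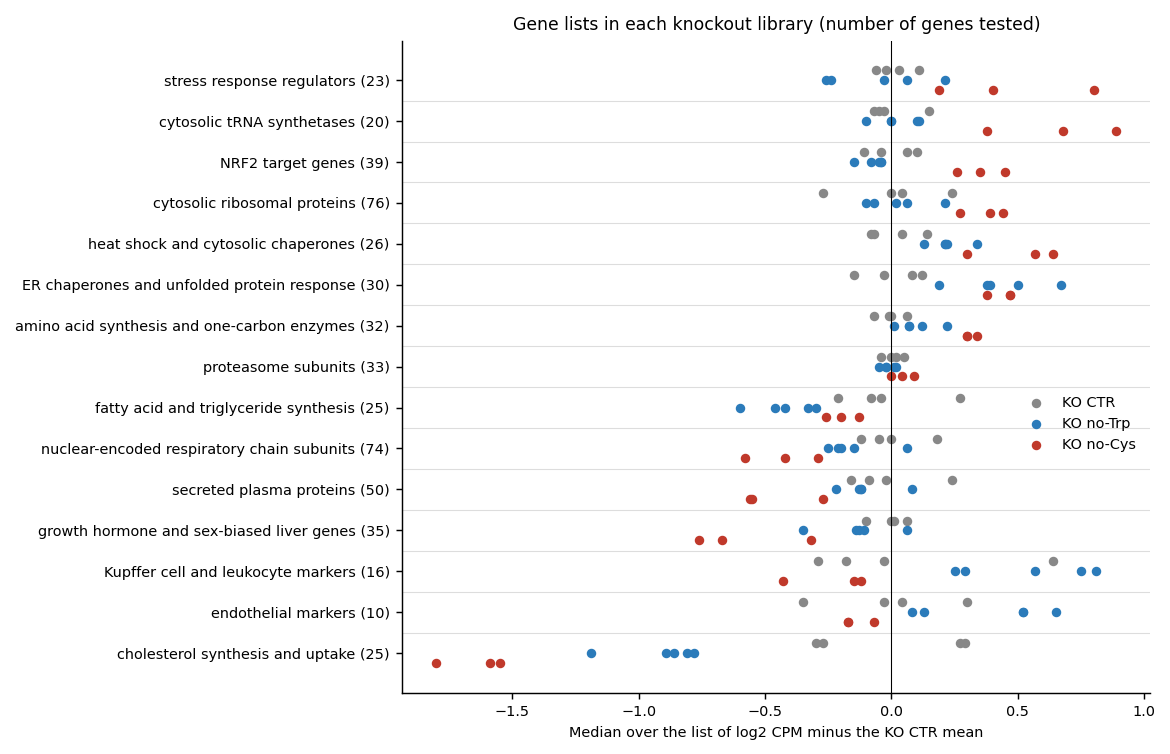
Median, over the tested genes of 15 lists, of log2 CPM minus the KO CTR mean, for each KO CTR, KO no-Trp and KO no-Cys library. The tRNA synthetases of the no-Cys libraries (0.38, 0.89 and 0.68) lie clear of all others, the ER chaperones of both depleted diets lie together above CTR, and the cholesterol genes of no-Trp lie between CTR and no-Cys.

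NRF2 targets are known to detoxify and export reactive compounds. Of 39 tested, 18 were called higher in no-Cys than in no-Trp and 0 lower (median 0.34), and 15 were higher without KO no-Cys replicate 3. Against KO CTR, 16 were higher and 2 lower in no-Cys, and 1 was higher and 2 lower in no-Trp. *Gstm1*, a glutathione transferase of the mu class (chromosome 3, 108012255 to 108017973), was at 3871, 3899 and 3144 CPM in no-Cys and at 876, 1033, 960, 876 and 888 in no-Trp (1.97, SE 0.12, adjusted p = 6.68e-09). *Gstm3* was at 182, 153 and 95.4 against 16.2, 10.4, 14.3, 14 and 16 CPM (3.33, SE 0.29, adjusted p = 5.32e-07), and *Gstm4* at 102, 108 and 83.3 against 28.4 to 32.1 (1.69, adjusted p = 4.03e-08). The mu class genes are close copies in a row on chromosome 3, so reads could be shared among them and the value of a single member is less certain than that of the group.

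Of the 24 largest changes, *Gstm2* and *Bmf* were called in opposite directions against CTR. *Gstm2* was at 59.9 to 73.9 CPM in CTR, 136, 120 and 107 in no-Cys and 33.6, 34.7, 31.1, 20.5 and 30.0 in no-Trp, with 0.85 in no-Cys and -1.16 in no-Trp, and 2.01 between them (SE 0.18, adjusted p = 8.14e-07). *Nqo1*, a quinone reductase and classical NRF2 output, was nearly level within each group, at 23.2, 22.9 and 23.7 against 5.94 to 7.76 CPM (1.75, SE 0.18, adjusted p = 4.84e-06). *Srxn1*, which restores oxidised peroxiredoxins, was at 55.3, 95.9 and 65.4 against 26.6 to 36.9 CPM (1.15, adjusted p = 5.22e-05). *Gsta1* and *Gsta2*, of the alpha class, were higher by 2.73 and 1.46. *Gsta1* was not among the 12 largest rises above, so it did not meet every condition of that choice. The ferritin genes *Fth1* and *Ftl1*, which store iron, were at 4127 to 4590 against 2183 to 2790 CPM and at 3253 to 3406 against 1811 to 2295 (0.85 and 0.67). The spread within no-Cys differed from gene to gene in both lists. The highest library was 1.03 times the lowest for *Nqo1* and 1.24 for *Gstm1*, but 1.73 for *Srxn1* and 1.91 for *Gstm3*; it was 4.34 for *Trib3*, 6.29 for *Fgf21* and 7.34 for *Slc7a1*, but 1.24 for *Asns*, 1.36 for *Gars* and 1.38 for *Psat1*. As a list, the NRF2 targets stood 0.26, 0.45 and 0.35 log2 units over the CTR mean in replicates 1, 3 and 4, with replicate 1 the lowest, and between -0.15 and -0.04 in no-Trp.

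Other named targets were not called. *Gclc*, the rate-limiting enzyme of glutathione synthesis, was at 132, 176 and 152 CPM in no-Cys and at 75.8 to 130 in no-Trp, without overlap (0.5, adjusted p = 0.0588), although KO CTR stood at 115 to 186. *Hmox1*, which breaks down heme, was at 13.1 to 18.1 against 11.6 to 28.2 CPM (-0.29, adjusted p = 0.504), and *Nfe2l2*, the gene of NRF2, at 43.0 to 60.2 against 31.0 to 56.9 (0.12, adjusted p = 0.647). *Gclm*, the partner of *Gclc*, was at 0.0 (adjusted p = 0.998). The letters TGACNNNGC, the core of the antioxidant response element, were in 12 of 45 windows of this list (26.7%) and in 10.2% of all windows, on either strand. The list was written from known NRF2 targets, so its share follows in part from that choice and is not a result of these data. *Abcc4* is shown as a gene of the largest rises whose window held them, and capitals again mark the match.
Abcc4, chr14:118676932-118676994, minus strand: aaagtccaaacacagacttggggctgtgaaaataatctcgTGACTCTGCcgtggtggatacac

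Genes of glutathione itself did not move as one. Of 22 tested, 2 were called higher and 5 lower, 1 and 3 without KO no-Cys replicate 3, and the median was 0. The shares over all genes were 7.17% and 6.75%, and 2.1% and 1.89% without that replicate. *Gpx1*, a selenium-containing peroxidase that spends glutathione, was at 1281, 1047 and 1159 CPM in no-Cys and at 1989 to 2441 in no-Trp, lower by 0.95 on the log2 scale (log2 fold change -0.95, SE 0.13, adjusted p = 0.000142). *Glo1*, which clears methylglyoxal with glutathione, was lower too (-0.54, adjusted p = 0.000575). *Ggct*, which releases 5-oxoproline in glutathione breakdown, was at 15.5 to 16.6 against 8.76 to 11.8 CPM (0.64, adjusted p = 0.00503) and *Chac1*, given above, was the other rise.

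The methionine cycle, transsulfuration and cysteine breakdown had 3 called higher and 6 lower of 30 tested (median -0.05). The counts were 1 and 1 without KO no-Cys replicate 3, and 2 and 3 without KO no-Cys replicate 4 or KO no-Trp replicate 3. Over all genes 7.17% were called higher and 6.75% lower, and 2.1% and 1.89% without KO no-Cys replicate 3. *Csad*, which makes hypotaurine on the way to taurine, was at 127, 175 and 145 CPM in no-Cys and at 40.2, 54.5, 25.2, 35.6 and 48.7 in no-Trp (1.87, SE 0.37, adjusted p = 0.00259). KO CTR stood at 61.0 to 169, neither diet was called against it (0.63 and -1.25), and the gene overlaps *Zfp740*. *Cbs*, which makes cystathionine, was at 347, 415 and 368 against 230 to 292 CPM (0.51, adjusted p = 0.00506). *Bhmt*, which returns homocysteine to methionine, was at 2390, 945 and 1409 against 2471 to 3260 CPM (-0.87, adjusted p = 0.00909), and *Mpst*, which makes sulfide from mercaptopyruvate, was at -0.42 (adjusted p = 0.00626). These last 3 were not called without KO no-Cys replicate 3. *Cdo1*, the cysteine dioxygenase that consumes cysteine, was at 1637 to 2376 against 2236 to 2739 CPM, a difference of -0.34 that was not called (adjusted p = 0.0868).

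Genes that use tryptophan or make NAD had 2 called higher and 5 lower of 23 tested (median -0.23). The lower count was 2 without KO no-Cys replicate 3, 3 without replicate 4 and 9 without replicate 1. The medians of these fits were -0.1, -0.15 and -0.42. *Tdo2*, which opens the tryptophan ring, overlapped fully, at 1319 to 2434 CPM in no-Cys and 1327 to 2193 in no-Trp (0.05, adjusted p = 0.911). *Kyat1*, which converts kynurenine and cysteine conjugates, was at 242, 230 and 243 against 108 to 173 CPM (0.88, adjusted p = 0.000341), and the oxidase gene *Aox1* at 75.9, 100 and 80.9 against 29.1 to 47.1 (1.11, adjusted p = 0.00028). *Haao*, of quinolinate synthesis, was lower (-0.47, adjusted p = 0.00185), and so was *Nampt*, of NAD salvage (-0.87, adjusted p = 0.00604; not called without KO no-Cys replicate 3). In no-Trp against CTR 0 of 23 were called with edgeR (6 unadjusted, 3 with DESeq2 and 2 with limma-voom). Genes of coenzyme A, which takes its thiol from cysteine, had 1 higher and 2 lower of 21, against 7.17% and 6.75% over all genes. The higher call was lost with any 1 of the 8 libraries left out, and the lower count was 1 without KO no-Cys replicate 3 or replicate 4. *Nudt19*, a peroxisomal hydrolase of coenzyme A, was at 35.8 to 42.1 against 54.4 to 63.6 CPM (-0.62, adjusted p = 0.000157), and the pantothenate kinase gene *Pank3* at 32.6 to 53.1 against 55.4 to 60.9 (-0.5, adjusted p = 0.0192).

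Most cholesterol genes were called lower in each depleted diet than in KO CTR, and most again lower without cysteine than without tryptophan. Of 25 tested, 16 were called lower in no-Cys than in no-Trp and 0 higher (median -0.74), 7 without KO no-Cys replicate 3. Against CTR, 23 were lower in no-Cys (median -1.68) and 20 in no-Trp (median -0.93). By library, the list's median stood at -1.55, -1.8 and -1.59 log2 units from the CTR mean in no-Cys and at -0.78 to -1.19 in no-Trp, with KO CTR libraries between -0.3 and 0.29. *Nsdhl*, of the demethylation steps, was at 40.1 to 69.4 CPM in CTR, 12.1 to 20.7 in no-Trp and 6.65, 5.58 and 6.04 in no-Cys (-1.48 between the diets, SE 0.22, adjusted p = 0.000276). *Stard4*, a carrier of free sterol, was at 106 to 157, 54.4 to 84.7 and 27.1, 23.8 and 31.3 CPM (-1.32, adjusted p = 6.93e-05). *Ebp*, of the later ring steps, fell from 204 to 242 in no-Trp to 119 to 146 in no-Cys (-0.74, adjusted p = 4.21e-05) and was not called in no-Trp against CTR (-0.19). *Tm7sf2*, a sterol reductase gene that overlaps *Vps51*, was lower by -1.08 on the same scale (adjusted p = 9.87e-05).

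The regulators of the pathway followed it in part. *Srebf2*, its main factor, was at 41.5 to 54.3 CPM in CTR, 31.4 to 40.7 in no-Trp and 27.1, 23.3 and 23.1 in no-Cys (-0.53, SE 0.11, adjusted p = 0.00335). *Hmgcs1*, an early enzyme, was called in each diet against CTR (-2.75 and -2.05) but not between them (-0.7, adjusted p = 0.0788). *Srebf1*, the factor of fatty acid synthesis, was not called (-0.74, adjusted p = 0.156), and its no-Trp libraries ran from 44.1 to 160 CPM. The sterol response letters TCACNCCAC were in 1.05% of all windows on either strand; *Hmgcs1* is shown as the 1 gene of this list with a window that held them.
Hmgcs1, chr13:119690174-119690262, plus strand: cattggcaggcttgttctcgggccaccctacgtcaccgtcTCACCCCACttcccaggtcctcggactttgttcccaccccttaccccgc

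Of 25 tested genes of fatty acid and triglyceride synthesis, 3 were called higher and 1 lower in no-Cys than in no-Trp (median 0.07). The counts were 0 and 0 without KO no-Cys replicate 3 and 5 and 1 without replicate 1. For this list and that of fatty acid oxidation, the shares over all genes were 7.17% higher and 6.75% lower. *Scd1*, the stearoyl-CoA desaturase, was at 1686 to 5362 CPM in CTR, 836, 258 and 264 in no-Cys and 289 to 716 in no-Trp. Its log2 fold change against CTR was -3.05 in no-Cys and -3.0 in no-Trp. The difference between the diets was -0.05 (SE 0.49) and was not called (adjusted p = 0.962), which does not show that they are equal. *Acaca*, which makes malonyl-CoA, was at 27.9, 45.7 and 47.6 against 21 to 25.7 CPM (0.8, adjusted p = 0.00533; not called without KO no-Cys replicate 3). Against CTR the list had 6 called lower in each diet. Fatty acid oxidation had 1 higher and 3 lower of 34 (median -0.1; 0 and 1 without KO no-Cys replicate 3, 1 and 1 without replicate 4), with *Hadh* at 225 to 288 against 332 to 400 CPM (-0.59, adjusted p = 0.00175).

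**Figure D5:**
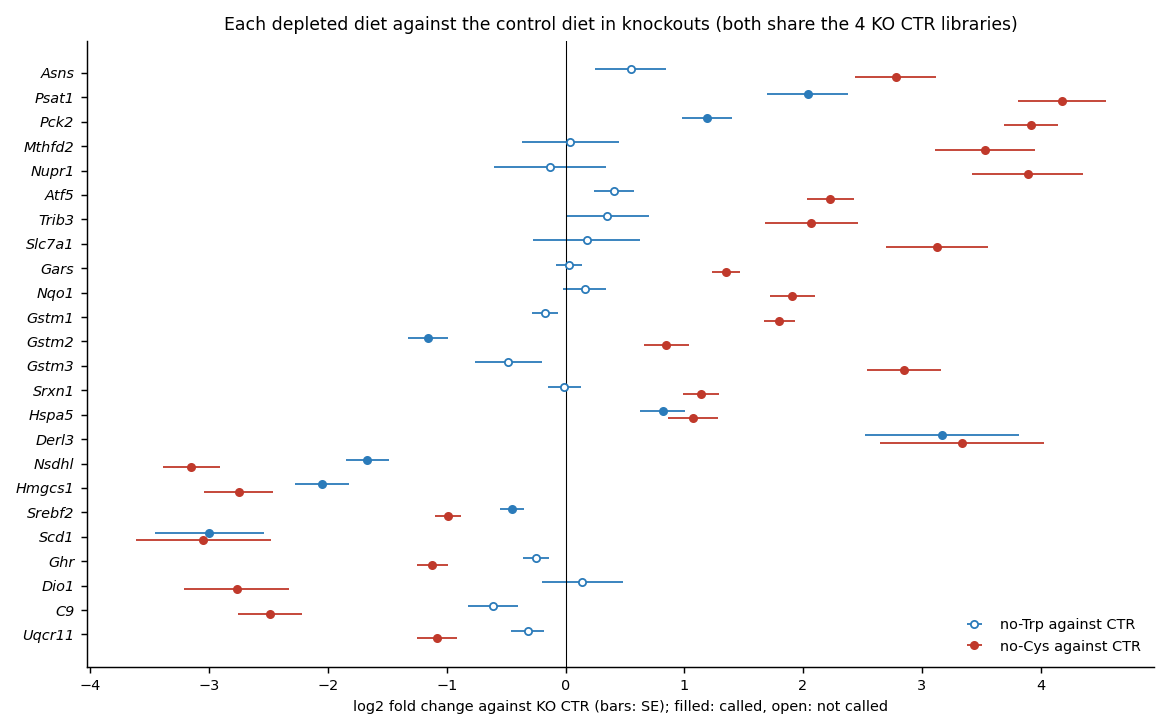
Log2 fold change (points) with SE (bars) of 24 genes in no-Trp and in no-Cys against KO CTR, filled where called. *Hspa5*, *Derl3* and *Scd1* each lie on the same side of CTR under both diets. Both contrasts share the KO CTR libraries, so nothing is read from their likeness. *Asns* and *Gstm1* are called in no-Cys alone, and *Gstm2* is called in opposite directions.

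Of 74 tested nuclear genes of the respiratory chain, 27 were called lower in no-Cys and 0 higher (median -0.3), 6 without KO no-Cys replicate 3 and 18 with library totals in place of TMM. Against CTR, 49 were lower in no-Cys, and 1 was higher and 1 lower in no-Trp. *Ndufa4* was at 371, 297 and 325 CPM against 434 to 525 (-0.54, adjusted p = 0.0011), *Sdhd*, of succinate dehydrogenase, at 165, 119 and 131 against 180 to 245 (-0.58, adjusted p = 0.00293), and *Uqcr11*, of complex III, at 203, 165 and 205 against 273 to 425 (-0.76, adjusted p = 0.0039). Of 11 messages of the mitochondrial genome 1 was called, higher, a call lost without any 1 of 6 of the 8 libraries. Against CTR, 4 of these messages were lower in no-Cys (median -0.6) and 1 in no-Trp (median -0.7), with 0 higher in either. By library, the KO CTR medians themselves ran from -0.56 to 0.35. Of 76 cytosolic ribosomal protein genes 35 were called higher and 0 lower (median 0.33), 13 without KO no-Cys replicate 3, 18 without replicate 4, 23 without KO no-Trp replicate 3, 22 with only the 2 groups in the fit and 42 with library totals. *Rpl4* was at 1078, 1112 and 1072 CPM against 704 to 786 (0.58, adjusted p = 0.000109), and *Rpl10a* at 323, 366 and 347 against 196 to 246 (0.66, adjusted p = 0.000109). Ribosomal genes have many processed copies in the genome, which could take a part of their reads. In no-Trp against CTR 0 of 76 ribosomal genes were called with edgeR (8 unadjusted, 2 with DESeq2 and 1 with limma-voom).

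Cytosolic chaperones had 11 called higher and 1 lower of 26 (median 0.34), but 3 and 0 without KO no-Cys replicate 3, 1 and 1 without replicate 4, 6 and 0 with only the 2 groups in the fit or without KO no-Trp replicate 2 and 4 and 1 without KO no-Trp replicate 3. *Hspa8*, the constitutive HSP70, was at 1132, 1493 and 1789 CPM against 688 to 1140 (0.67, adjusted p = 0.00821; not called without replicate 4), and *Cct2*, of the chaperonin that folds actin and tubulin, at 180, 209 and 198 against 125 to 147 (0.52, adjusted p = 0.00132). Proteasome subunits showed 2 called of 33, both higher, and 0 without KO no-Cys replicate 3. For these and the lists that follow, the shares over all genes were 7.17% higher and 6.75% lower. Autophagy and lysosome genes showed 3 higher and 4 lower of 30 (1 and 1 without KO no-Cys replicate 3, 2 and 2 without replicate 4), immediate early genes 2 and 0 of 26 (0 and 0 without KO no-Cys replicate 3, 3 and 1 without replicate 1), p53 and cell cycle genes 1 and 1 of 28, and the urea cycle with gluconeogenesis 1 and 1 of 28. The p53 counts were 3 and 1 without KO no-Trp replicate 1 and 0 and 1 without KO no-Cys replicate 3 or replicate 4, and the urea cycle counts 0 and 3 without KO no-Cys replicate 1. *Otc*, the urea cycle enzyme that makes citrulline, was the fall in the urea cycle list, at 223, 118 and 167 against 326 to 410 CPM (-1.06, adjusted p = 0.000109). Clock genes had 0 called of 20 with edgeR (6 unadjusted, 2 with DESeq2 and 3 with limma-voom).

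The 12 largest falls were chosen in the same way. *Selenbp2*, a selenium-binding methanethiol oxidase relative, was at 6.99, 2.91 and 13.2 CPM in no-Cys and at 112, 329, 44.9, 333 and 144 in no-Trp (-4.65, SE 0.95, adjusted p = 0.00315); it has a near-identical neighbour, *Selenbp1*, which was not called (0.02, adjusted p = 0.934). *Dio1*, the selenium enzyme that activates thyroid hormone, was at 15.6, 3.96 and 14.1 against 56.9 to 133 CPM (-2.91, SE 0.43, adjusted p = 0.000218). *Aqp8*, a water and peroxide channel, was at 5.19, 4.38 and 9.7 against 19.8 to 38.9 CPM (-2.16), with CTR at 47.6 to 112. *C9*, the pore-forming complement protein, was at 64.3, 35.5 and 76.6 against 164 to 280 CPM (-1.88, adjusted p = 9.11e-05). *Car3*, an abundant carbonic anhydrase, was at 674, 240 and 552 against 976 to 1978 (-1.69, adjusted p = 0.000768). The highest no-Cys library lay under the lowest no-Trp library in each.

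*Bmf*, a pro-apoptotic BH3-only gene, differed from CTR under both diets in opposite directions, at 14.4 to 19.6 CPM in CTR, 9.36, 6.19 and 8.61 in no-Cys and 18.2 to 32.2 in no-Trp (-1.02 and 0.78, and -1.8 between them, adjusted p = 4.46e-05). The other largest falls were the organic anion carrier gene *Slc22a7* (-1.97), the collagen gene *Col27a1* (-2.12), the steroid dehydrogenase gene *Hsd17b6* (-1.74), the protease gene *Adamts7* (-1.73), *Nxpe2* (-2.16) and *Wfdc21* (-1.62). *Slc22a7* was at 5.77 to 14.3 against 27.9 to 42.8 CPM and *Hsd17b6* at 62.3 to 122 against 210 to 359.

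Secreted plasma proteins had 2 called higher and 16 lower of 50 (median -0.39), but 0 and 1 without KO no-Cys replicate 3, 1 and 8 without replicate 4 and 1 and 10 without KO no-Trp replicate 2. By library the list stood at -0.27, -0.56 and -0.55 log2 units from the CTR mean in no-Cys and at -0.22 to 0.08 in no-Trp. *Alb* itself, at 44754, 21622 and 24482 against 32996 to 54098 CPM, overlapped and was not called (-0.46, adjusted p = 0.171). *Ttr*, a thyroxine and retinol carrier, was at 4197, 3148 and 4080 against 5047 to 5522 CPM (-0.47, adjusted p = 0.00928) and *Apoc1*, an apolipoprotein, at 2673, 2123 and 2798 against 3477 to 4325 (-0.63, adjusted p = 0.0112); neither was called without KO no-Cys replicate 3. *Serpina12*, the adipokine vaspin, was at 2.37, 1.29 and 1.29 CPM against 38.2, 44.8, 2.29, 32.8 and 40 (-4.35, adjusted p = 0.00645), with 1 no-Trp animal as low as the no-Cys group.

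Growth hormone and sex-biased genes had 1 called higher and 8 lower of 35 (median -0.45), 0 and 3 without KO no-Cys replicate 3 and 1 and 4 without replicate 4. The median was -0.24 without KO no-Trp replicate 2 and -0.25 without KO no-Trp replicate 3. *Ghr*, the growth hormone receptor, was at 210, 154 and 195 CPM in no-Cys, 277, 298, 381, 372 and 371 in no-Trp and 388 to 421 in CTR (-0.87, SE 0.12, adjusted p = 0.000137). *Igfbp2*, a carrier of insulin-like growth factors, was at 575, 529 and 526 against 941 to 1721 CPM (-1.31, adjusted p = 0.0011), and *Mup3*, one of many near-identical urinary protein genes, at -1.03 (adjusted p = 0.00144). Drug and steroid enzymes had 6 higher and 11 lower of 49 (median -0.25), 2 and 6 without KO no-Cys replicate 3 and 3 and 13 without replicate 1. *Cyp1a2*, which oxidises caffeine, was at 1429, 1296 and 1483 against 464 to 947 CPM (1.08, adjusted p = 0.00289), and *Cyp2a5*, close in sequence to *Cyp2a4*, at 2440 to 2590 against 1122 to 1574 (0.94, adjusted p = 8.72e-05). In the other direction, *Cyp3a11* was at 383, 257 and 306 against 700 to 812 CPM (-1.25, adjusted p = 0.000648) and *Cyp2c29* at 182 to 309 against 463 to 595 (-1.13, adjusted p = 0.000528). Metal handling had 2 higher, the ferritins, and 4 lower of 20 (2 and 2 without KO no-Cys replicate 3), with *Steap4*, a metal reductase, at 34.8 to 42.3 against 67.0 to 152 CPM (-1.34, adjusted p = 0.00133).

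The labelled tissue carried its markers, with 10 of 10 hepatocyte markers tested and 1 called, lower in no-Cys but not without KO no-Cys replicate 3 (summed level 46900 to 76400 CPM in no-Cys and 68400 to 92200 in no-Trp). Of 16 tested markers of Kupffer cells and leukocytes 0 were called higher and 3 lower (median -0.69; 1 lower without KO no-Cys replicate 1 or replicate 4, a share near that of all genes), 0 were called in no-Cys against CTR, and the 20 listed genes summed to 150 to 186 CPM in no-Cys, 231 to 401 in no-Trp and 143 to 282 in CTR, with *Ly6g* at 0. *Cd74*, of antigen presentation, was at 28.0, 39.6 and 41.2 against 51.2 to 122 CPM (-1.2, adjusted p = 0.0092). Endothelial markers had 4 called lower of 10 (median -0.59), but 0 without KO no-Cys replicate 3 and 1 without replicate 1 or replicate 4. They summed to 146 to 170 CPM in no-Cys, 175 to 245 in no-Trp and 140 to 222 in CTR, with 0 at 0 counts. Against CTR the median was -0.27 in no-Cys, with 1 called, lower. It was 0.4 in no-Trp, with 0 called with edgeR (6 unadjusted, 1 with DESeq2 and 1 with limma-voom). Among the 4 was the sinusoidal scavenger receptor *Stab2*, at 21.3 to 26.8 against 31.9 to 39.9 CPM (-0.61, adjusted p = 0.0112). In bulk RNA, fewer cells of a type and less RNA per cell cannot be told apart, and the part of these cells in the gene lists above was not tested. Stellate markers had 1 called, higher, of 10, lost without any 1 of 6 of the 8 libraries (219 to 244 CPM in sum against 196 to 251) and bile duct markers 1 lower of 8, lost without KO no-Cys replicate 3 (48.6 to 61.5 against 65.3 to 83.8). Adipocyte, red cell, muscle and pancreas or gut markers had 0 called with edgeR of 2, 5, 1 and 3 tested (1, 0, 0 and 0 unadjusted, and 0 with DESeq2 or limma-voom). The red cell genes summed to 128 to 157 CPM in no-Cys and 108 to 219 in no-Trp, and the muscle genes to 0.789 to 4.43 and 0.532 to 1.38. Of the adipocyte and pancreas or gut lists, *Plin1*, *Lep*, *Retn*, *Ucp1*, *Prss2*, *Pnlip*, *Cpa1* and *Amy2a5* were at 0 counts in all 8 libraries.

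In the WT-labelled mice, which can make cysteine from methionine, the same diets differed in 23 genes (0.16%; 1398 at an unadjusted p under 0.05), with 2 libraries on the no-Trp side. The count was 126 with DESeq2, 0 with limma-voom (576 unadjusted) and 0 in edgeR with only the 2 groups in the fit (1101 unadjusted), and 9 to 64 with 1 library left out. The test of the difference itself, no-Cys minus no-Trp in knockouts less the same in WT, was called in 477 genes with a positive value (3.32%) and 435 with a negative one (3.03%). *Psat1* had the largest positive value among the genes eligible to be named (4.62, adjusted p = 0.00033): in WT it was at 0.403 to 0.817 CPM in no-Cys and at 4.76 and 1.57 in no-Trp, the reverse of the knockout order. *Nupr1* and *Mthfd2* followed at 4.48 and 4.17. Of the lists, 11 of 20 cytosolic synthetases and 32 of 76 ribosomal proteins were called with a positive value, and 20 of 25 cholesterol genes with a negative one. These values hold a WT part of opposite direction, which rests on 2 WT no-Trp libraries. The list medians between the diets were 0.62, 0.33 and -0.74 in knockouts and -0.12, -0.21 and 0.7 in WT. In WT 4 of 20 synthetases, 7 of 76 ribosomal proteins and 25 of 25 cholesterol genes had a positive value, called or not. By library totals alone the 912 calls became 1256, 81.4% of them positive in place of 52.3%, with the all-gene median at 0.192 in place of 0.

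The largest negative values belonged to acute-phase genes. *Saa2*, *Saa1* and *Orm2*, which the liver secretes in inflammation, had -10.29, -8.98 and -5.48. In WT no-Cys *Saa1* was at 4780, 1121, 486 and 180 CPM and in WT no-Trp at 17.6 and 49.7, while in knockouts it was at 45.1, 11.2 and 27.3 without cysteine and at 978, 128, 138, 81.1 and 92.9 without tryptophan. The order of the diets was thus opposite in the 2 genotypes, and the spread within groups was wide. *Saa1* and *Saa2* are close copies, so reads could be split between them. In knockouts alone *Saa1* and *Saa2* were called lower in no-Cys (-3.37 and -3.89, adjusted p = 0.048 and 0.0438), calls that were lost without any 1 of 6 of the 8 libraries.

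As a description with no test, cysteine and tryptophan codons were counted in the longest coding sequence of each gene in the annotation. Sequences were found for 12315 genes (85.7% of those tested), with a median of 1.91 cysteine and 1.09 tryptophan codons per 100. Genes called higher in no-Cys had medians of 1.68 and 1.0, and genes called lower 2.01 and 1.31. Among those called with any library left out the medians were 1.54 and 1.14 for higher genes and 1.99 and 1.43 for lower ones. The middle 50% of all genes spanned 1.24 to 2.76 cysteine codons per 100. The lists did not follow the direction of their calls: of those called lower in no-Cys, the respiratory chain genes had the lowest cysteine median of the lists counted (1.07), plasma proteins had 1.63 and cholesterol genes 2.21, while of those called higher ribosomal proteins had 1.26, NRF2 targets 1.55 and cytosolic synthetases 1.91. ER chaperones, of which few were called, had 1.34.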

How the data were processed

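Bulk RNA of liver was sequenced in 21 mice. After TRIzol extraction and poly(A) selection the authors read paired ends, aligned reads to GRCm38 with HISAT2 2.1.0 and counted them per gene with htseq-count (HTSeq 0.11.0); the deposited values are raw counts, 1 column per library. The annotation release and strand setting are not given in the sources used here. 1 column matched no sample and was not used. Of 46078 genes, 45229 were in GENCODE M21, which gave symbols and positions; the other 849 held 0.0536% of counts.

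Groups came from the titles. Genes were kept by filterByExpr (minimum count 10, total 15), which left 14370 of the 26504 with any count. edgeR 4.0.16 (R 4.3.3) fitted 1 model over 6 groups and all 21 libraries, scaled by TMM, with two-sided quasi-likelihood F-tests; calls are at an adjusted p under 0.05. Alternatives were DESeq2 1.42.0 (the study's tool), limma-voom (limma 3.58.1) with quality weights, other scalings, no filter, fits restricted to the groups of each comparison, a block for replicate number, and leaving out each library. Same-numbered libraries of both groups correlated in their deviations at 0.17, -0.05 and -0.02. The libraries were treated as unpaired, but 3 such values cannot settle whether the numbers pair them. The code was tested on simulated data.

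The members and the 37 gene lists were chosen with earlier results of these data known. Named genes were *Cth*, then the 12 largest rises and 12 largest falls among genes called in all fits with 1 library left out, over 2 log2 CPM on average, with non-overlapping groups and a gene symbol; then up to 5 called members of a list and genes named in the study; and the 3 largest values of each sign for the diet difference between genotypes. *Gclm*, *Phgdh*, *Slc7a11*, *Glul*, *Herpud1*, *Selenbp1* and the genes of the last 2 paragraphs of the closing section were added after their values were seen. Codons replaced the planned count of protein residues. Lists are given by counts, with no set test. Per-gene precision is limited by counting at low levels and by 3 animals in KO no-Cys. Some genes are not reported here.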

Additional observations from a re-analysis of the deposited data

Results flagged for a closer look

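Among 125 gene and group values tested, 11 had 1 KO no-Trp library far from the other 4 (a gap over 0.71 of the group's range, which chance gives in about 1 of 20 groups). Acute-phase genes made up 4 of them, all through replicate 1: *Saa1* at 978 CPM (others 81.1 to 138), *Saa2* at 275 (27.9 to 59.2), *Saa4* at 885 (342 to 492) and *Apcs* at 372 (175 to 223). The same animal was high for *Cdo1* at 2739 CPM (2236 to 2351) and *Rpl4* at 786 (704 to 722). Replicate 5 was high for *Gdf15* at 7.98 CPM (1.65 to 3.02) and *Cars* at 30.4 (18.7 to 22.0). Replicate 4 was low for *Arhgef2* at 2.17 CPM (3.82 to 4.35) and *Hadh* at 332 (386 to 400), and replicate 3 for *Serpina12* at 2.29 (32.8 to 44.8).

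The diet difference itself differed between knockouts and WT-labelled mice in 912 genes by edgeR's test of that difference, and in 26 of 27 genes chosen by size. That share is fixed by the choice: 24 genes were picked for their diet difference in knockouts, a part of the value tested, and *Saa1*, *Saa2* and *Orm2* for the value itself. Positive values, where no-Cys exceeded no-Trp by more in knockouts, were 4.62 for *Psat1*, 4.48 for *Nupr1*, 4.17 for *Mthfd2*, 4.14 for *Gstm3*, 3.48 for *Cntnap1*, 3.32 for *Pck2*, 2.77 for *Arhgef2*, 2.57 for *Asns*, 2.41 for *Abcc4*, 2.25 for *Extl1*, 2.11 for *Gstm1* and 1.71 for *Gstm2* on the log2 scale. Negative values were -10.29 for *Saa2*, -8.98 for *Saa1*, -5.48 for *Orm2*, -3.83 for *Dio1*, -3.37 for *Aqp8*, -3.08 for *C9*, -2.72 for *Col27a1*, -2.47 for *Nxpe2*, -2.32 for *Wfdc21*, -2.0 for *Slc22a7*, -1.94 for *Bmf*, -1.75 for *Adamts7*, -1.57 for *Car3* and -1.42 for *Hsd17b6*. *Selenbp2* was the exception (-4.29). Only 2 WT no-Trp libraries stand behind these values.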

How the results depend on the processing

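Of the 121 genes named, 102 were called between the knockout diets, 76 of them under every alternative run, and 0 reversed. The alternative that lost most was leaving out KO no-Cys replicate 3 (25 calls), then replicate 4 (9) and the replicate block (5). The 2000 genes called became 3204 with limma-voom and 1302 with the replicate number as a block, and ran from 570 (without KO no-Cys replicate 3) over 1197 (without replicate 4) to 2124 with 1 library left out. Under the block, higher calls went from 35 to 20 for ribosomal proteins, from 11 to 5 for cytosolic chaperones and from 5 to 2 for mitochondrial synthetases, and lower calls from 16 to 10 for plasma proteins and from 4 to 2 for endothelial markers. The numbers were not taken as pairs, though this could not be settled. In their deviations, no-Cys libraries 1, 3 and 4 were closest to no-Trp libraries 1, 5 and 3, a match in number 1 alone. For no-Cys against CTR, 2906 calls ran from 1379 (without KO no-Cys replicate 3) to 2979 with 1 library left out. For no-Trp against CTR, 269 calls became 606 with DESeq2, 610 with limma-voom and 136 with only the groups compared, and ran from 105 (without KO CTR replicate 1) to 447 (without KO CTR replicate 2), with 140 without KO CTR replicate 3 and 141 without KO no-Trp replicate 3. For the diets in WT, 23 calls became 126 with DESeq2, 50 with no filter, and 0 with only the groups compared in edgeR (1101 unadjusted) and with limma-voom (576 unadjusted), and ran from 9 to 64 with 1 library left out; where 1 WT no-Trp library was left, it was assumed to vary like the other groups. The difference between genotypes went from 912 to 553 with limma-voom and ran from 416 (without KO no-Cys replicate 3) to 1179 (without KO no-Cys replicate 1). With library totals in place of TMM the share of higher calls went from 52.6% to 73.7% for no-Cys against CTR, from 41.6% to 55.5% for no-Trp against CTR and from 52.2% to 22.2% in WT, and the median of all genes went from 0.004 to 0.132 in the first and from -0.002 to -0.117 in the last. The cause of these changes was not tested, beyond the smaller number of samples where libraries were left out.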

Other observations

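Acute-phase genes did not all fall together in knockouts without cysteine. *Saa4*, the constitutive serum amyloid gene, was at 251, 167 and 180 CPM in no-Cys and at 885, 421, 492, 409 and 342 in no-Trp (log2 fold change -1.35, edgeR adjusted p = 0.00756). *Apcs*, the pentraxin serum amyloid P, went the other way, at 580, 635 and 475 against 372, 175, 184, 223 and 181 CPM (1.31, adjusted p = 0.0161). In both genes the groups did not overlap, and neither was called without KO no-Cys replicate 3. These genes and those of the next paragraph were chosen after their values were seen.

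The autophagy and lysosome list had 3 genes called higher and 4 lower of 30, and the immediate early list 2 higher and 0 lower of 26, against 7.17% higher and 6.75% lower over all genes. *Sqstm1*, the autophagy receptor p62, which ATF4 and NRF2 are both known to induce, was at 486, 853 and 650 CPM in no-Cys and at 357 to 411 in no-Trp (0.81, adjusted p = 0.000572), and it overlaps *Mrnip*. *Ctsl*, a lysosomal cysteine protease, was at 1661, 1845 and 1614 against 825 to 1180 CPM (0.85, adjusted p = 0.00697). *Gadd45a*, a growth arrest gene, was at 2.14, 34.5 and 26.1 against 2.99 to 8.43 CPM (2.01, adjusted p = 0.00975), with replicate 1 below every no-Trp library. *Klf10*, a growth-restraining factor, was at 22.0, 43.6 and 36.4 against 8.25 to 22.4 CPM (1.22, adjusted p = 0.00976). The last 3 were not called without KO no-Cys replicate 3.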
